A study of Homo sapiens with 6 samples.

Results

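The mitochondrial ribosomal protein genes were taken as the rows of the count table whose symbol begins with MRPL or MRPS followed by a digit, which gave 78 of 20332 genes. These were 49 MRPL and 29 MRPS genes, and all 78 were among the 12941 genes with enough counts to be tested. The counts came from poly(A) RNA of Huh-7 cells, an established human hepatocellular carcinoma line. There were 3 samples of a stable line made with a lentivirus that overexpresses RAC3 (RAC3 overexpression), a small GTPase, and 3 samples of the corresponding negative control line. The labels give the genotype of the controls as WT and do not describe their vector, and the genotype fields of overexpression samples 2 and 3 read RAC4 and RAC5 overexpression, so the titles were used for the groups. Whether the stable line was a single clone, or whether the samples of a group came from separate cultures, was not stated, so the p-values measure the spread between these samples, which may be technical. The whole series compared what changed in Huh-7 cells when RAC3 was raised, and here that question was put to the mitochondrial ribosome.

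The mitochondrial ribosome makes the few proteins that are still encoded by mitochondrial DNA, all of them subunits of the respiratory chain and the ATP synthase. Its ribosomal RNAs come from mitochondrial DNA, but its proteins are encoded in the nucleus, made in the cytosol and imported, so that a complete ribosome needs many separate nuclear genes to be expressed. Part of these proteins descend from the bacterial ribosome and part are found in mitochondria alone. The symbols do not follow the subunits strictly: MRPS30 and MRPS18A sit in the large subunit, and MRPS36, also called KGD4, is a component of the 2-oxoglutarate dehydrogenase complex and was placed in neither subunit. By place in the ribosome, 51 members belonged to the large subunit and 26 to the small subunit, 46 had a bacterial homologue and 31 were specific to mitochondria.

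RAC3 itself was at 35.6, 31.4 and 32.8 CPM (its count relative to the TMM-scaled size of the library) in the controls and at 233, 239.6 and 225 CPM in the overexpression samples, a log2 fold change of 2.81 (SE 0.0574, edgeR adjusted p = 9.6e-18). Total counts lay between 13855762 and 18199888 per sample. The 10 hepatocyte markers were all present, summing to 5634 to 5705 CPM in the controls and 5144 to 5658 CPM in the overexpression samples. The sum hides opposite changes: 3 of the 10 were higher and 3 lower at an edgeR adjusted p below 0.05. Of all genes tested, 13.3% were higher and 15.3% lower. Markers of other cell types summed to 679.5 to 727 CPM in the controls and 533 to 596 CPM with RAC3 overexpression, with 4 of these 13 genes at or under 3 counts in every sample. Only 5 of the 13 had enough counts to be tested, of which 1 was higher and 2 lower. Most of the sum was KRT19 (652 ± 22.5 and 524 ± 32.0 CPM), while the macrophage marker CD68 moved the other way (5.73 ± 1.03 and 7.89 ± 0.863 CPM, adjusted p = 0.0418). The part of these differences in the results below was not tested. In bulk RNA, fewer cells that express a gene and less of its RNA per cell cannot be told apart.

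The promoters of 4 members are shown because the results turn on these genes. MRPS22, MRPS10 and MRPL32 had the largest increases among the members that passed the test, and MRPS26 had the largest decrease. Each run holds the 250 bases before the RefSeq transcription start, read 5′ to 3′ on the strand of the gene (build GRCh38.p14). The regions are chr3:139343744-139343993 on the plus strand for MRPS22, chr6:42217862-42218111 on the minus strand for MRPS10, chr7:42932126-42932375 on the plus strand for MRPL32 and chr20:3045802-3046051 on the plus strand for MRPS26. MRPS22 has 3 listed starts, of which the first listed was used. Capitals mark matches to the ETS core CCGGAAG or the YY1 core AAGATGGC on either strand.
MRPS22: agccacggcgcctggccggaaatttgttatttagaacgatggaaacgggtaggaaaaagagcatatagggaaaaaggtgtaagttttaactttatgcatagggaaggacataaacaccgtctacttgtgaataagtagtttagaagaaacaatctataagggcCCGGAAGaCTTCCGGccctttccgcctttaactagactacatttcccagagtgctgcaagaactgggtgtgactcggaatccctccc
MRPS10: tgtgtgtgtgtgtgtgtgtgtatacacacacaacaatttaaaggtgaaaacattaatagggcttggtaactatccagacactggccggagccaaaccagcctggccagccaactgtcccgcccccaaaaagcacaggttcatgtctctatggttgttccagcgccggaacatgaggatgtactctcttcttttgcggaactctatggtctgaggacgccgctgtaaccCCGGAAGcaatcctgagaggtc
MRPL32: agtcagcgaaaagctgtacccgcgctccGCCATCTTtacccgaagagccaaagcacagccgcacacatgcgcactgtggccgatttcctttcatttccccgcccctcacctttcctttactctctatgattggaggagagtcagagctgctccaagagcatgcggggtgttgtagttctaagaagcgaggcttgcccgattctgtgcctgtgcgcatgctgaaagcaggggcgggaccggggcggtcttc
MRPS26: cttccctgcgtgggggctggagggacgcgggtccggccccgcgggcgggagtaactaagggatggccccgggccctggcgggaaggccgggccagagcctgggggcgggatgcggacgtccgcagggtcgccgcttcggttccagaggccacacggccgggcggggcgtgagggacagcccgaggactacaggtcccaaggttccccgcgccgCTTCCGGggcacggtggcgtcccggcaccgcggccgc

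MRPS22 carried the ETS letters on both strands side by side, starting 87 and 79 bases before the start. MRPS10 carried 1 ETS match 22 bases before the start, MRPL32 a YY1 match 222 bases before it, and MRPS26 an ETS match 37 bases before it. With the 50 bases after the start, which are not printed, MRPS22 held 3 ETS matches and MRPS10 also 1 YY1 match. ETS-family factors such as GABPA, and YY1, are known regulators of nuclear genes for mitochondrial proteins. In windows of 300 bases (250 before and 50 after the start), available for 69 of the 78 members, 29 held the ETS core (42%) against 19.3% of 10439 tested genes, and 20 held the YY1 core (29%) against 5.31%. Of all 27305 RefSeq windows, 10.7% held the ETS core and 3.03% the YY1 core. The core of nuclear respiratory factor 1 (NRF1), searched as GCGC, then A and any base, then GCGC, was in 8 of the 69 windows (11.6%), against 11.7% of tested genes and 6.28% of all windows. Among the members that rose with RAC3 overexpression, 9 had a window, of which 3 held the ETS core, 4 the YY1 core and 1 the NRF1 core. Among the 3 members that fell, 1 held the ETS core and none the others. These matches describe letters in a window and are not evidence of binding.

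All members were well expressed. Their mean counts ran from 142 for MRPL33 to 2840.3 for MRPL11, with a median of 679 per sample. On the length-adjusted FPKM scale, the median member had a level of 37.6, against 9.71 for all genes tested. Large subunit members had a median of 41.2 FPKM and small subunit members of 32.4 FPKM. Most subunits are present once in the finished ribosome. The highest mean FPKM among the members was 19.6 times the lowest.

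**Figure D1:**
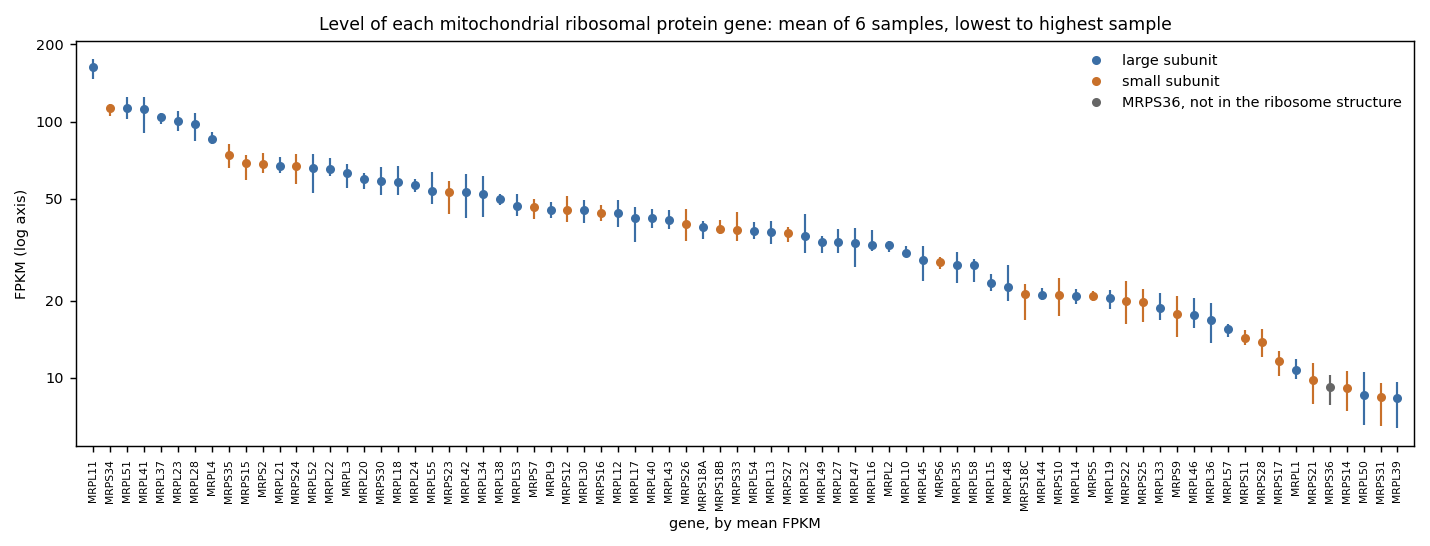
FPKM of every member on a vertical log axis, with members in order of their mean along the horizontal axis; points are the mean of the 6 samples, lines run from the lowest to the highest sample, and colours mark the subunit. Means run from 164 FPKM for MRPL11, whose line clears all others, to 8.36 FPKM for MRPL39, and the lines of most neighbours overlap.

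MRPL11, a homologue of bacterial uL11 at the base of the stalk where translation factors bind, was the highest member. Its FPKM values were 165.1, 165.5 and 162 in the controls and 147, 175 and 166 with RAC3 overexpression (mean 164 ± 9.14, SD, n = 6), and its lowest sample stayed above the highest sample of each other member. MRPS34 (113 ± 4.32 FPKM), MRPL51 (113 ± 8.33 FPKM), both specific to mitochondria, and MRPL41 (112 ± 12 FPKM) came next and could not be ordered within their spread. At the other end, MRPL39 (8.36 ± 1.28 FPKM), MRPS31 (8.37 ± 1.07 FPKM) and MRPL50 (8.53 ± 1.37 FPKM) also overlapped. In the count test of RAC3 overexpression against the control, the log2 fold changes were -0.03 for MRPL11, -0.08 for MRPS34, 0.12 for MRPL51, 0.27 for MRPL39 and 0.20 for MRPS31, all with an adjusted p above 0.05. MRPL50 did pass that test, and its values are given with the other large subunit genes.

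As a family, the mitochondrial ribosomal protein genes moved little. Members rose by at most 0.43 and fell by at most 0.23 on the log2 scale, 42 estimates were above 0 and 36 below, and the median log2 fold change was 0.01, against 0.00 for all genes tested. No member passed the thresholds of the study (fold change above 1.5 with unadjusted p below 0.05), which 4.68% of genes tested passed. For 77 of 78 members the 95% interval of the fold change lay wholly inside 1.5-fold in both directions. The exception was MRPS22, with an interval of 0.26 to 0.60 on the log2 scale.

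At an edgeR adjusted p below 0.05, 10 members rose and 3 fell (17 and 0 when libraries were scaled by their size alone, which moved the median of all genes by 0.06 and called 20.2% of them higher and 10.7% lower). That was 12.8% of members higher against 13.3% of all genes tested, and 3.85% lower against 15.3%. In either direction, 13 members passed (16.7%), against 28.5% of all genes tested and 32.7% of the 8412 genes within the members' range of mean CPM (8.92 to 179 CPM). The share of members called higher thus lay near the background and is no result about the family, while the shares called lower and called at all lay below it. The smaller share went with smaller changes: the middle 50% of member changes spanned 0.19 on the log2 scale, against 0.32 for all genes tested and 0.29 for the genes of like abundance. Only 6 members (7.69%) changed by over 0.25 in either direction, against 30.5% and 23.7%. The median coefficient of variation of the members was 5.01% in the controls and 5.59% with RAC3 overexpression, against 6.46% and 6.43% for all genes tested and 5.43% and 5.44% for the genes of like abundance. The number called depended on single libraries: it was 4 without negative control 2 or without RAC3 overexpression 1, and 7 without negative control 1 or without RAC3 overexpression 3. Over the 6 analyses that left out a sample, 8.93% to 11.7% of all genes were higher and 11.2% to 13.7% lower.

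**Figure D2:**
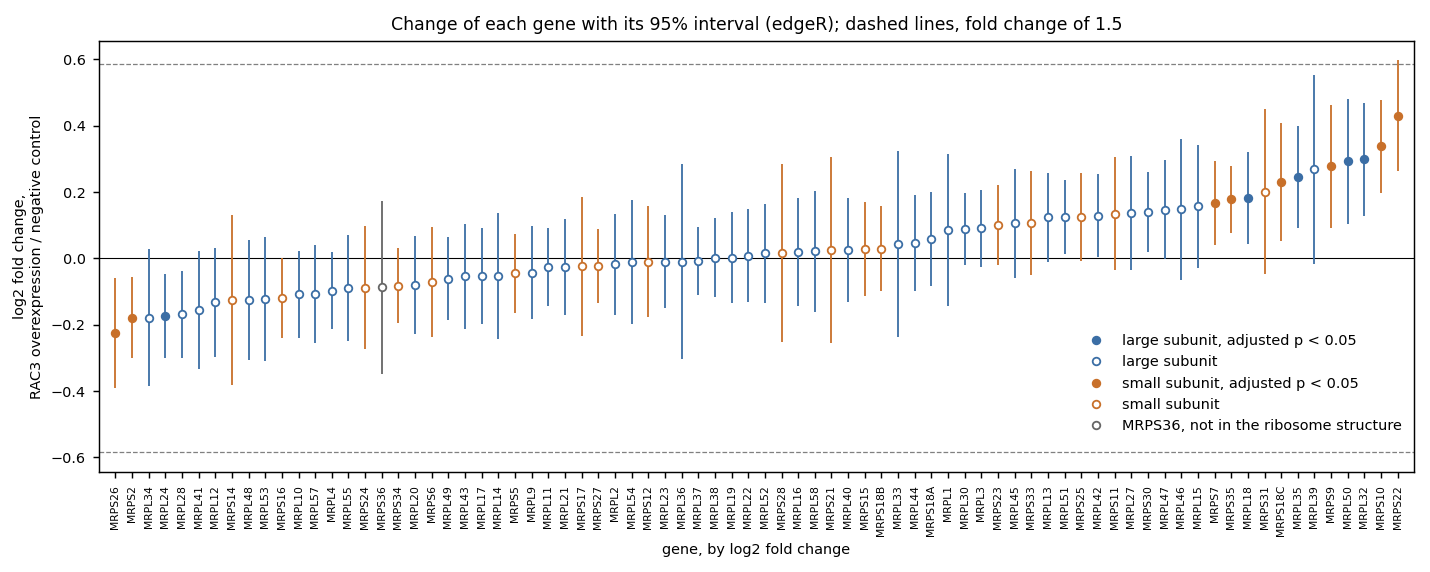
Log2 fold change (RAC3 overexpression against negative control) of each member in order, on the vertical axis, with its 95% interval; filled points are the members at an adjusted p below 0.05, colours mark the subunit, and dashed lines mark a fold change of 1.5. Among the filled points 10 stand above 0 and 3 below, and the interval of MRPS22 alone crosses a dashed line.

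The 3 overexpression samples were all above or all below the 3 controls for 24 members (30.8%, against 42.5% of all genes tested), 21 of them higher and 3 lower. Shares by direction were not computed for all genes tested, so this split has no background beside it. The summed counts of all members made up 0.376%, 0.380% and 0.390% of the counts in the controls and 0.393%, 0.412% and 0.400% in the overexpression samples. These shares did not overlap, but they are dominated by abundant members and are relative to a total that other genes also set. Relative to the mean of the controls, the median member deviated by -0.03, -0.01 and 0.03 (log2) in the controls and by -0.02, 0.08 and 0.01 with RAC3 overexpression, so on that measure the groups overlapped.

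Small subunit genes held 8 of the 13 calls. Of the 26 small subunit members, 6 rose and 2 fell (30.8% called, near the 28.5% of all genes tested and the 32.7% of genes of like abundance), with a median log2 fold change of 0.03. Of the 51 large subunit members, 4 rose and 1 fell (9.80%), with a median of 0.00. The difference between the subunits was not tested. The median deviation of a subunit varied between samples of a group with an SD of 0.0355 (small) and 0.0438 (large) on the log2 scale. By origin, 7 members with a bacterial homologue rose and 2 fell (median -0.01), and 3 mitochondria-specific members rose and 1 fell (median 0.03). That was 19.6% of 46 and 12.9% of 31 members called, against 28.5% of all genes tested.

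MRPS22, a mitochondria-specific protein of the small subunit, had the largest change of the family. It was at 21.3, 22.3 and 20.7 CPM in the controls and 29.2, 29.7 and 27.7 CPM in the overexpression samples. The groups were wide apart, and the increase was 34.7% (log2 fold change 0.43, SE 0.0801, adjusted p = 0.000538). Its gene model runs from 139005806 to 139357223 on chromosome 3 and overlaps exons of COPB2, a coatomer subunit on the opposite strand. COPB2 had a log2 fold change of 0.19 (adjusted p = 0.0206), and whether the counting used strand is not given in the sources used here. The part of such shared reads in the MRPS22 value was not tested.

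MRPS10, the homologue of bacterial uS10 in the head of the small subunit, was at 37.9, 37.2 and 41.4 CPM in the controls and 47.6, 49.3 and 50.7 CPM with RAC3 overexpression. All overexpression samples were above all controls, by 26.4% on average (log2 fold change 0.34, SE 0.0672, adjusted p = 0.000942). MRPS22 and MRPS10 were the members that passed the test in each of 16 alternative analyses, with log2 fold changes of 0.40 to 0.49 and of 0.22 to 0.39.

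The other small subunit genes that rose did so by less. MRPS35, specific to mitochondria, went from 124 ± 3.72 to 140.4 ± 3.48 CPM (SD, n = 3 each; log2 fold change 0.18, adjusted p = 0.00964). MRPS9, the homologue of bacterial uS9, went from 22.6 ± 1.82 to 27.4 ± 2.17 CPM (log2 fold change 0.28, adjusted p = 0.0242). Its lowest overexpression sample, at 24.9 CPM, was close to the highest control, at 24.4 CPM. MRPS7, the homologue of uS7, which binds the small ribosomal RNA, went from 51.1 ± 2.17 to 57.3 ± 1.00 CPM (log2 fold change 0.17, adjusted p = 0.0464). MRPS18C, the homologue of bacterial bS18, went from 21.4 ± 1.65 to 25.1 ± 0.245 CPM (log2 fold change 0.23, adjusted p = 0.0492). MRPS7 passed the test in 8 and MRPS18C in 4 of the 16 alternatives. The 2 paralogues of MRPS18C, classed here as mitochondria-specific, had smaller estimates that did not pass, 0.06 for MRPS18A (adjusted p = 0.558) and 0.03 for MRPS18B (adjusted p = 0.76). The difference between the paralogues was not tested.

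In the large subunit, MRPL32 rose most. This bL32 homologue is cut by the m-AAA protease of the inner membrane before it joins the ribosome. It was at 27.7, 29.9 and 27.2 CPM in the controls and 34.4, 38.1 and 31.5 CPM with RAC3 overexpression (log2 fold change 0.30, SE 0.0815, adjusted p = 0.00981), and it passed in 15 of 16 alternatives. The groups were apart, although the overexpression samples spread more (SD 3.30 against 1.44 CPM). MRPL35, the homologue of bL35, went from 28.0 ± 0.284 to 33.2 ± 1.31 CPM (log2 fold change 0.25, adjusted p = 0.0166). MRPL50, specific to mitochondria and among the members with the lowest FPKM, was at 22.4, 26.1 and 28.0 CPM in the controls and 34.2, 30.6 and 29.1 CPM with RAC3 overexpression (log2 fold change 0.29, adjusted p = 0.0205), where the nearest samples of the groups differed by about 1 CPM. MRPL18, the homologue of uL18, is named after its values were seen: it passed (log2 fold change 0.18, adjusted p = 0.0445), but its groups overlapped, with a highest control of 55.4 CPM and a lowest overexpression sample of 55.1 CPM.

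The 3 genes that fell were MRPS2, MRPS26 and MRPL24. MRPS2, the homologue of bacterial uS2, was at 116, 105 and 101 CPM in the controls and 92.8, 99.8 and 91.5 CPM with RAC3 overexpression (log2 fold change -0.18, SE 0.0583, adjusted p = 0.0267). The groups did not overlap, but the nearest samples lay close to each other. MRPL24, the homologue of uL24 near the peptide exit tunnel, was at 53.7, 52.7 and 51.1 CPM in the controls and 45.9, 46.7 and 47.1 CPM with RAC3 overexpression, with both groups tight (log2 fold change -0.17, SE 0.0609, adjusted p = 0.039). MRPS26, a mitochondria-specific small subunit protein chosen after its values were seen, was at 47.4, 39.5 and 44.5 CPM in the controls and 38.2, 40.0 and 34.0 CPM with RAC3 overexpression, so that its groups overlapped (log2 fold change -0.23, adjusted p = 0.0391). Of the 16 alternatives, MRPS2 passed in 9, MRPS26 in 8 and MRPL24 in 6. MRPL28 lay just outside the threshold (log2 fold change -0.17, adjusted p = 0.0501).

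**Figure D3:**
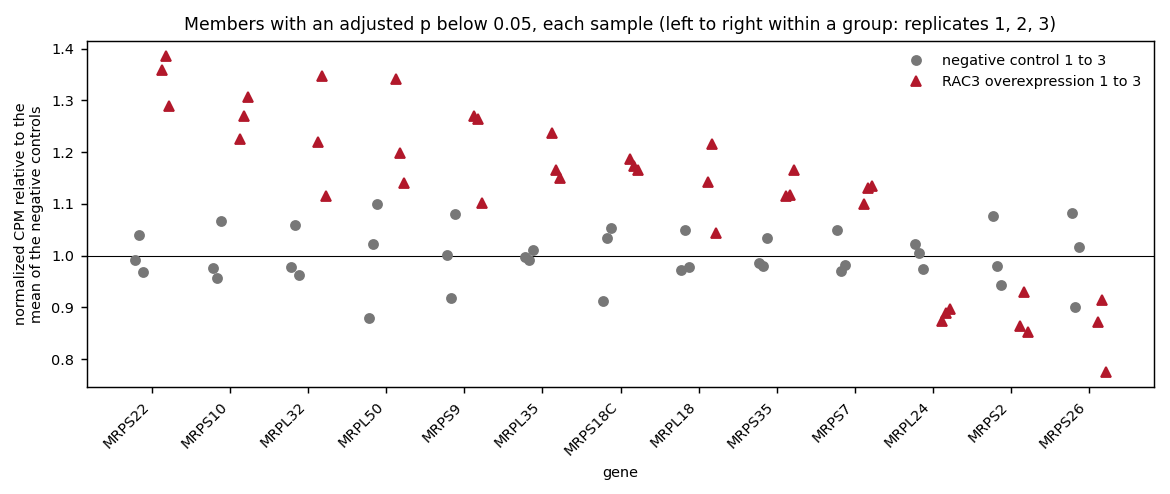
TMM-scaled CPM of each sample for the members at an adjusted p below 0.05, divided by the mean of the controls (vertical axis, ratio); circles are the 3 controls and triangles the 3 overexpression samples of each gene, in order along the horizontal axis. The 3 overexpression samples of MRPS22 lie well above its 3 controls, and the groups of MRPL18 and MRPS26 overlap.

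Several members were described whatever their change. MRPL12, the stalk protein that recruits translation factors, lies on chromosome 17 and is the member nearest to RAC3, at a distance of 324 kb. It was at 45.2, 42.7 and 50.6 CPM in the controls and 38.0, 44.3 and 44.5 CPM with RAC3 overexpression (log2 fold change -0.13, interval -0.30 to 0.03, adjusted p = 0.22). The other members of that chromosome region, 6126 to 7010.4 kb away, had log2 fold changes of 0.00 (MRPL38), 0.17 (MRPS7) and 0.02 (MRPL58, a peptidyl-tRNA hydrolase built into the large subunit). MRPS30 had an estimate of 0.14 (adjusted p = 0.0776), MRPL23, an exit tunnel protein, of -0.01, and MRPS36 of -0.09 (adjusted p = 0.647).

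The direction of a member's change went with the base composition of its longest annotated protein-coding transcript. That transcript may not be the one expressed, as with MRPL42, where it is 15582 bases long, and this was not tested. Over the 78 members, Pearson's r between the log2 fold change and the GC content was -0.57 (Spearman's rank correlation -0.59), and over 12863 tested genes r was -0.43. These correlations are across genes, which share the same 6 libraries and are not independent replicates. Of the 39 members at or below the median GC content of 48.9%, 9 rose and none fell at an adjusted p below 0.05, and 30 estimates were above 0 (median 0.11). Of the 39 members above it, 1 rose and 3 fell, and 27 estimates were below 0 (median -0.03). In either direction 23.1% of the GC-poor and 10.3% of the GC-rich members were called, against 28.5% of all genes tested (13.3% higher and 15.3% lower). The same shares were not computed for GC-poor and GC-rich genes in general. The transcripts of the members that fell were the richest in GC of those called, at 61.4% for MRPS2, 63.4% for MRPS26 and 54.9% for MRPL24, and MRPL50 was the poorest at 35.0%.

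The relation was visible in single libraries. The deviation of members from the mean of the controls had an r with GC content of 0.26, -0.21 and -0.13 in the controls. In the overexpression samples the r values were -0.70, -0.35 and -0.35, so the first overexpression library stood lowest. The controls set this reference, so their values lie around 0 by construction and the overexpression values hold the group difference. When each library's trend with GC content was removed, 7 members rose and 1 fell, and 4 of the original 13 passed: MRPS22 (0.42, adjusted p = 0.000483), MRPS10 (0.22, adjusted p = 0.0176), MRPL32 (0.25, adjusted p = 0.0293) and MRPS7 (0.19, adjusted p = 0.0203). In the same analysis 9.88% of all genes were higher and 10.9% lower, so the share of members higher lay near the background. The other 9 of the 13 did not pass. MRPS9 (0.23, adjusted p = 0.0659) and MRPL18 (0.17, adjusted p = 0.058) kept most of their fold, whereas MRPS2 was at -0.0045, MRPS26 at -0.03, MRPL24 at -0.08, MRPL35 at 0.11, MRPL50 at 0.09, MRPS18C at 0.07 and MRPS35 at 0.06. Members that passed only after the removal were MRPL38 (0.21), MRPS18A (0.18), MRPS34 (0.12) and, in the other direction, MRPL19 (-0.16). In all, 30 members changed sign, and r over the members became 0.34. With GC removed, the medians of the GC-poor and GC-rich members were 0.00 and 0.07. A trend with GC content in the cells of a group and one in its libraries cannot be told apart here.

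**Figure D4:**
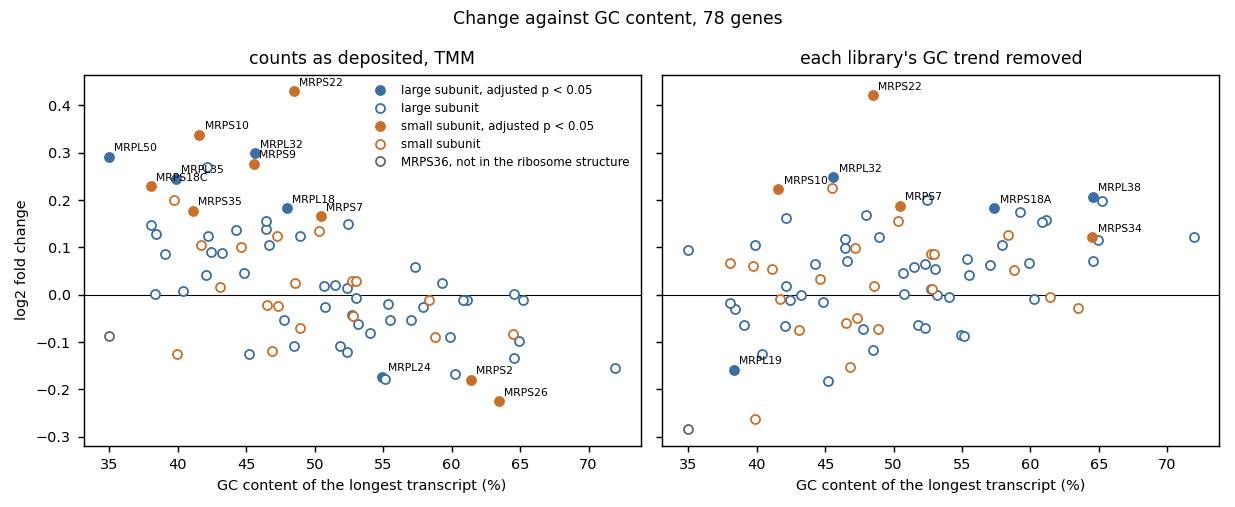
Log2 fold change of the 78 members (vertical axis) against the GC content of the longest protein-coding transcript in percent (horizontal axis), as tested (left) and with the GC trend of each library removed (right); colours mark the subunit and filled points are the members at an adjusted p below 0.05. The points fall from left to right as tested (r = -0.57), and rise after the removal (r = 0.34).

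The ribosome also holds proteins whose symbols do not begin with MRPL or MRPS. None of 5 such genes passed the test at an adjusted p below 0.05 (13.3% of genes tested were higher and 15.3% lower): DAP3 had a log2 fold change of 0.14 (adjusted p = 0.0725), PTCD3 of 0.10, CHCHD1 of -0.05, AURKAIP1 of -0.03 and GADD45GIP1 of -0.05. AURKAIP1 passed when the GC trend was removed (0.21, adjusted p = 0.00789). With them, the 82 subunits gave the same 10 higher and 3 lower genes.

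Factors that assemble the ribosome were also mostly below the threshold, with 1 of 31 rows higher and 1 lower (median 0.07). Of all genes tested, 13.3% were higher and 15.3% lower. The rows stand for 30 genes, since GTPBP6 is listed under 2 identifiers with the same counts. GTPBP10, a GTPase that matures the large subunit, rose from 18.7 ± 0.840 to 25.4 ± 1.19 CPM (log2 fold change 0.44, adjusted p = 0.000862). CLPP, the proteolytic subunit of the matrix ClpXP protease, fell from 57.3 ± 3.00 to 46.9 ± 5.62 CPM (log2 fold change -0.29, adjusted p = 0.00809). When the GC trend was removed, GTPBP10 was at 0.25 (adjusted p = 0.044), and CLPP was at -0.10 and did not pass (adjusted p = 0.304).

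Of 17 mitochondrial translation factors, 4 rose and 1 fell (median 0.11), against 13.3% and 15.3% of all genes tested. In either direction the share called was near the 28.5% of all genes tested. The elongation factors GFM1 (0.31, adjusted p = 0.00211) and GUF1 (0.27, adjusted p = 0.0159), the recycling factor GFM2 (0.24, adjusted p = 0.00956) and the initiation factor MTIF2 (0.26, adjusted p = 0.018) rose. OXA1L, the insertase that receives new proteins at the inner membrane, fell (-0.21, adjusted p = 0.00306). With the GC trend removed, GFM1 (0.19, adjusted p = 0.0348) and OXA1L (-0.20) passed, and GFM2 (0.15, adjusted p = 0.0911), GUF1 (0.13, adjusted p = 0.246) and MTIF2 (0.14, adjusted p = 0.17) did not. The peptide deformylase gene PDF, named after its values were seen, passed in that analysis (0.48, adjusted p = 0.00789). Each of the 4 that rose is a GTPase, which was noticed after their values were seen. TUFM, also a GTPase of this list, had a log2 fold change of -0.09 and did not pass (adjusted p = 0.176).

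Of 12 genes for transcription and replication of mitochondrial DNA, 4 rose and 3 fell (median 0.17), against 13.3% and 15.3% of all genes tested. TFAM, which packs mitochondrial DNA and starts its transcription, was at 51.4, 52.3 and 59.1 CPM in the controls and 76.9, 67.3 and 73.1 CPM with RAC3 overexpression (log2 fold change 0.41, adjusted p = 0.000163). The transcription elongation factor TEFM (0.50), TFB2M (0.25) and the nuclease MGME1 (0.20) rose as well. The RNA polymerase POLRMT (-0.28), the polymerase POLG (-0.22) and the topoisomerase TOP1MT (-0.34) fell. With the GC trend removed TFAM was the 1 gene of the list that passed (0.25, adjusted p = 0.00306). TEFM was then at 0.33 (adjusted p = 0.103), TFB2M and MGME1 at 0.14 each, TOP1MT at -0.21 (adjusted p = 0.0657), POLRMT at -0.06 and POLG at -0.07.

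Among 11 nuclear regulators, 2 rose and 3 fell, against 13.3% and 15.3% of all genes tested. MYC, which drives ribosome and mitochondrial genes in many cells, rose from 63.3 ± 1.40 to 87.1 ± 3.45 CPM (log2 fold change 0.46, adjusted p = 7.4e-06), and GABPA, the ETS factor named above, rose from 23.3 ± 1.83 to 30.1 ± 2.09 CPM (log2 fold change 0.36, adjusted p = 0.00353). NRF1 (-0.29, adjusted p = 0.00962), the nuclear receptor ESRRA (-0.30, adjusted p = 0.00833) and the lysosomal regulator TFEB (-0.81, adjusted p = 0.00277) fell. TFEB was the 1 gene of these lists past the 1.5-fold threshold of the study. YY1 had a log2 fold change of -0.03 (adjusted p = 0.74). MYC (0.53), NRF1 (-0.30) and TFEB (-0.68) also passed with the GC trend removed, and GABPA (0.18, adjusted p = 0.112) and ESRRA (-0.11, adjusted p = 0.342) did not.

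The products of mitochondrial DNA, which the mitochondrial ribosome translates, were measured as 13 protein-coding transcripts, and its 2 ribosomal RNAs were not analysed here. Of the 13, 8 rose and none fell (median 0.17), against 13.3% and 15.3% of all genes tested. MT-ND2 had 1316, 1335 and 1278 CPM in the controls and 1961, 1895 and 1814 CPM with RAC3 overexpression (log2 fold change 0.53, SE 0.0376, adjusted p = 1.2e-08), and MT-ATP6 rose by 21.6% (log2 fold change 0.28, adjusted p = 1.4e-05). Most of these transcripts have short poly(A) tails added in the mitochondrion, and the level of the 13 after oligo(dT) capture is not a measure of their level in total RNA. With the GC trend removed, 5 of the 13 rose and 2 fell, against 9.88% and 10.9% of all genes.

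**Figure D5:**
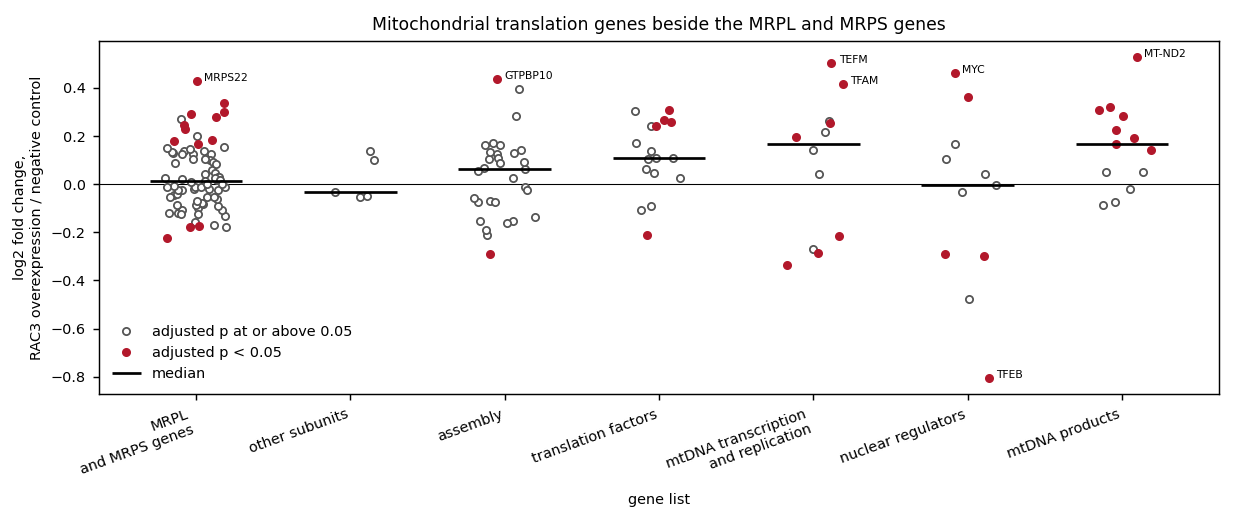
Log2 fold changes (vertical axis) of the members and of the 6 lists of related genes, 1 point per gene, with filled red points at an adjusted p below 0.05 and a bar at each median. The members lie in a narrow band around 0 (-0.23 to 0.43), and TFEB at -0.81 is the lowest point among the related genes.

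Read sharing limits single genes of the family. In GENCODE 29, 34 of the 78 members had 75 pseudogenes that carry their name, and 29 overlapped exons of a gene on the opposite strand. Of the 13 members that passed, 6 had such a pseudogene and 6 such an overlap, and how the counting treated reads that fit both is not given in the sources used here. For these members the values are uncertain to that extent.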

How the data were processed

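The deposited table held raw counts per gene for 6 samples, FPKM values that the authors computed per sample, and the authors' mean FPKM of each group, which was not used. The submitters' processing notes name Bowtie2 2.2.8, HISAT2, StringTie 1.3.1 and DESeq2, without their roles. The genome build, annotation, use of strand and lengths behind the FPKM values are not given in the sources used here. From the deposited counts, edgeR 4.0.16 (under R 4.3.3) removed low genes with filterByExpr, set TMM factors and ran its two-sided quasi-likelihood F test with no covariates, with Benjamini-Hochberg adjustment over all 12941 genes tested. CPM values are scaled by TMM. FPKM values were used for levels between genes only. Total counts per sample (13855762 to 18199888) and 3 samples per group set the precision, with a biological coefficient of variation of 0.0533. Every chi-square per degree of freedom between samples of a group was at least 2.47, so no pair of samples differed by counting noise alone. This value cannot tell separate cultures from separate libraries of the same culture or RNA.

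The members and gene lists were chosen with earlier results of these data known, the lists from general knowledge. Named members were, among those with an adjusted p below 0.05, a mean of at least 10 counts and groups that do not overlap, the 8 higher and 8 lower with the smallest p; the 3 highest and 3 lowest in mean FPKM; any past the thresholds of the study; and MRPL12, MRPL38, MRPS7, MRPL58, MRPS30, MRPS18A, MRPS18B, MRPS18C, MRPS36 and MRPL23 regardless of result. In the other lists at most 4 genes per direction were named, and all 5 ribosomal proteins with other symbols. MRPL18, MRPS26, MRPL28, MRPL19, MRPL33, MRPL37, MRPL41, PDF, TUFM and YY1 were named after their values were seen. Positions, GC content and length came from GENCODE 29 (GRCh38, longest protein-coding transcript), matched by gene identifier, and promoters from RefSeq (GRCh38.p14), matched by symbol. Motifs were searched on both strands as exact letters. Alternatives were 3 other scalings (the size factors of DESeq2, the upper quartile, the library size), other tests (DESeq2 1.42.0, limma-voom 3.58.1), 2 other filters, a replicate block, leaving out each sample, and, chosen after seeing the data, a lowess offset per library (span 0.3) that takes out its trend along GC content, or along transcript length. The steps were tested on simulated data.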

Additional observations from a re-analysis of the deposited data

How the results depend on the processing

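No member passed the study's thresholds in the 16 alternatives, and all 13 members that passed kept their direction in each. Scaling by library size alone, which moved the median of all genes by 0.06, gave 17 higher and 0 lower members, with medians of 0.068 (members), 0.0586 (large subunit), 0.0827 (small subunit), 0.0453 (bacterial homologue) and 0.0856 (mitochondria-specific), and 1 higher gene among the other subunits and 6 among the assembly factors. DESeq2 called 7 higher and 1 lower (11.2% and 13.1% of all genes). Leaving out each sample gave 3 to 7 higher and 0 to 5 lower members, with medians from -0.01 to 0.04 for all members, -0.02 to 0.04 for the large subunit, 0.00 to 0.06 for the small subunit, -0.03 to 0.03 for members with a bacterial homologue and 0.01 to 0.06 for mitochondria-specific members. There were 3 higher and 1 lower without the second control, 4 higher and 0 lower without the first overexpression sample, 5 of each without the second, 7 and 0 without the third or without the first control, and 7 and 2 without the third control. The replicate numbers did not pair the samples (correlations of 0.00658, 0.0492 and 0.0394 between same-numbered samples). A replicate block gave 7 higher and 2 lower members, 9 of them among the 13 (11.5% of all genes were higher and 13.7% lower).

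With the GC trend removed, 1 member was lower, the medians were 0.0545 (members) and 0.0589 (large subunit), and the lists held 1 higher other subunit, 5 higher and 0 lower assembly factors, 2 higher translation factors (GFM1 and PDF), 1 higher and 0 lower gene of mitochondrial DNA transcription and replication, 1 higher regulator, and 5 higher and 2 lower products of mitochondrial DNA. With the length trend removed, 15 members were higher and 0 lower (13.4% and 15% of all genes), the medians were 0.0663 (members), 0.0579 (large), 0.0848 (small), 0.0477 (bacterial homologue) and 0.0836 (mitochondria-specific), and 1 other subunit and 3 assembly factors were higher. CPM per kilobase gave a median control level of 27.5, in another unit than FPKM. It also changed the order of the 78 members, with a Spearman's rank correlation of 0.825 to FPKM and 8 of the 10 highest members shared. The 3 highest were then MRPL11, MRPS34 and MRPL37. The cause of these shifts was not tested.

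Among named members whose estimates lay near 0, signs turned as follows. With library size alone they were 0.0302 for MRPL11 and 0.0452 for MRPL23, and with the length trend removed 0.0309 and 0.0579. With the GC trend removed they were 0.0013 for MRPL11, 0.16 for MRPL23, 0.12 for MRPS34, 0.0709 for MRPL12 and -0.16 for MRPL19. With only genes without any count removed MRPL38 was at -0.00222 and MRPL19 at -0.00211, and when each sample had to hold 10 counts they were at -0.0014 and -0.00135. Leaving out samples gave ranges of -0.0884 to 0.0481 for MRPL11, -0.0783 to 0.0659 for MRPL23, -0.0221 to 0.0284 for MRPL38, -0.0501 to 0.0732 for MRPL58, -0.0439 to 0.0401 for MRPL19, -0.00804 to 0.0508 for MRPS18B and -0.18 to 0.000396 for MRPS36. The depth and 3 samples per group gave the members a median standard error of 0.0721 on the log2 scale, and a change of that size does not pass the test.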
